A study of Magallana angulata with 8 samples.

Results

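The 4 genes described here are the large lipid transport genes that the study of copper (Cu) body burden in the Fujian oyster, Crassostrea angulata, singled out among those that were higher in oysters with high Cu. They are 4 of the 25647 gene models in the deposited expression table, and they were chosen for their difference between high-Cu and low-Cu libraries, so that difference is given below as a description with no test. The series held 8 libraries of adult oysters, from gill or mantle, each made of RNA pooled from 6 oysters. The exposed oysters (set 2) were acclimated in tanks for 7 days and then kept for 30 days at 30 µg/L of added Cu and fed algal powder, giving the libraries G2-H and G2-L from gill and M2-H and M2-L from mantle. The unexposed oysters (set 1) were dissected on collection, giving G1-H and G1-L from gill and M1-H and M1-L from mantle. H stands for the oysters with the highest Cu of 60 measured in each set and L for those with the lowest. The sample labels gave the tissue and the Cu class, and the exposure, the pooling and the tank keeping from the study's methods. Cu exposure and tank keeping with feeding cannot be told apart, and the sex and gonad stage of the oysters were not given in the sources used here.

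Vitellogenins and apolipophorins belong to the large lipid transfer protein family, whose members carry lipid outside cells. Vitellogenin is the yolk precursor of egg-laying animals and binds lipid, phosphate and metal ions, while apolipophorins form the lipoprotein particles of insect hemolymph and apolipoprotein B forms those of vertebrate plasma. The microsomal triglyceride transfer protein, which loads such proteins with lipid in the secretory pathway, is a smaller relative. In bivalves vitellogenin is best known from the ovary, and gill and mantle are not its usual site of study.

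Each group was a single library, so no replicate of a condition was available. Library totals, worked out from the steps of the RPKM values (reads scaled by gene length and library total), lay between 2015375 and 2589524 reads. The exposed low-Cu mantle library, M2-L, stood apart from the others. Its median gene was at 2.84 on the log2 scale, against 3.25 to 3.44 in the other 7 libraries, and its 100 most abundant genes took 33.1% of the reads, against 16.8% to 29.5% elsewhere. The deficit was larger for long genes: of the 1282 tested genes with a coding length of at least 3642 nt, the length of the shortest gene described here, 68.5% had their lowest value in M2-L, against 31.0% of all 20123 genes tested. The contrasts, ranges and correlations of the 4 genes that rest on M2-L are therefore also given without it.

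All 4 genes were long. The median coding length of genes with a value was 1005 nt, whereas OYG_10018340_10030734 had 10863 nt (3620 codons before the stop), OYG_10014469_10040256 had 6576 nt (2191 codons), OYG_10015914_10025506 had 4545 nt (1514 codons) and OYG_10002658_10040256 had 3642 nt (1213 codons). In the deposited table each is annotated only as a hypothetical protein of the Pacific oyster, Crassostrea gigas. The study named OYG_10014469 apolipoprotein, OYG_10015914 vitellogenin and OYG_10002658 apolipophorin, and left OYG_10018340 as a hypothetical protein of the lipid transport group. Those names are kept here as the study's, since the proteins could not be compared with known family members. OYG_10014469 and OYG_10002658 share the second number of their IDs, whose meaning was not given in the sources used here. The study assayed the apolipophorin and vitellogenin genes by quantitative RT-PCR with the primer pairs shown here, which fix the stretch of each transcript that was amplified. The qRT-PCR values were not analysed here.
apolipophorin OYG_10002658 forward: caacggtgccaatgaagag
apolipophorin OYG_10002658 reverse: tggaggtaagcagctaaacg
vitellogenin OYG_10015914 forward: gcagcgacaacaaccagaa
vitellogenin OYG_10015914 reverse: gcggcataacttccctaatc

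The apolipoprotein gene OYG_10014469 was the most abundant of the 4, with a mean of 23.4 RPKM over the 8 libraries. Its gill values were 68.6 RPKM in G2-H, 13.7 in G2-L, 11.9 in G1-H and 3.93 in G1-L. Its mantle values were 59.5 RPKM in M2-H, 2.19 in M2-L, 17.8 in M1-H and 9.58 in M1-L. The exposed high-Cu libraries of both tissues were the highest and M2-L the lowest, 31.4-fold apart from G2-H (17.4-fold between G2-H and G1-L without M2-L). The hypothetical protein gene OYG_10018340 (mean 11.8 RPKM) had gill values of 28.5 in G2-H, 7.41 in G2-L, 8.89 in G1-H and 3.77 in G1-L. In mantle it had 33.6 RPKM in M2-H, 2.57 in M2-L, 6.38 in M1-H and 3.24 in M1-L. It differed from the apolipoprotein gene in that its unexposed gill values lay above the unexposed mantle values of the same Cu class.

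The apolipophorin gene OYG_10002658 (mean 10.0 RPKM) spanned the widest range, 55.5-fold, or 27.5-fold without M2-L. It had 33.2 RPKM in G2-H, 4.91 in G2-L, 3.53 in G1-H and 1.21 in G1-L in gill. It had 25.5 RPKM in M2-H, 0.598 in M2-L, 7.44 in M1-H and 3.68 in M1-L in mantle. The lowest of these rest on few reads, 5 in M2-L and 9 in G1-L, against 313 in G2-H. The vitellogenin gene OYG_10015914 (mean 7.49 RPKM) varied least, 4.75-fold, or 3.30-fold without M2-L. Its gill values were 12.7 RPKM in G2-H, 7.96 in G2-L, 7.36 in G1-H and 3.86 in G1-L, and its mantle values were 11.4 in M2-H, 2.68 in M2-L, 9.38 in M1-H and 4.48 in M1-L, from 28 to 150 reads a library. By mean RPKM the 4 genes ranked above 72.4%, 53.5%, 48.4% and 40.1% of the genes tested, in the order apolipoprotein, hypothetical protein, apolipophorin and vitellogenin, so by the mean none was at either extreme. In single libraries the ranks spread further. The apolipoprotein gene was above 90.6% of the genes with a value in G2-H and 90.6% in M2-H, and the apolipophorin gene above 6.14% in M2-L. G2-H and M2-H were the 2 highest libraries for 4 of 4 genes, a pattern held by 5.78% of the genes tested and 6.32% of the long genes. The choice of genes higher in high-Cu libraries favours this pattern, so nothing is read from the count.

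**Figure D1:**
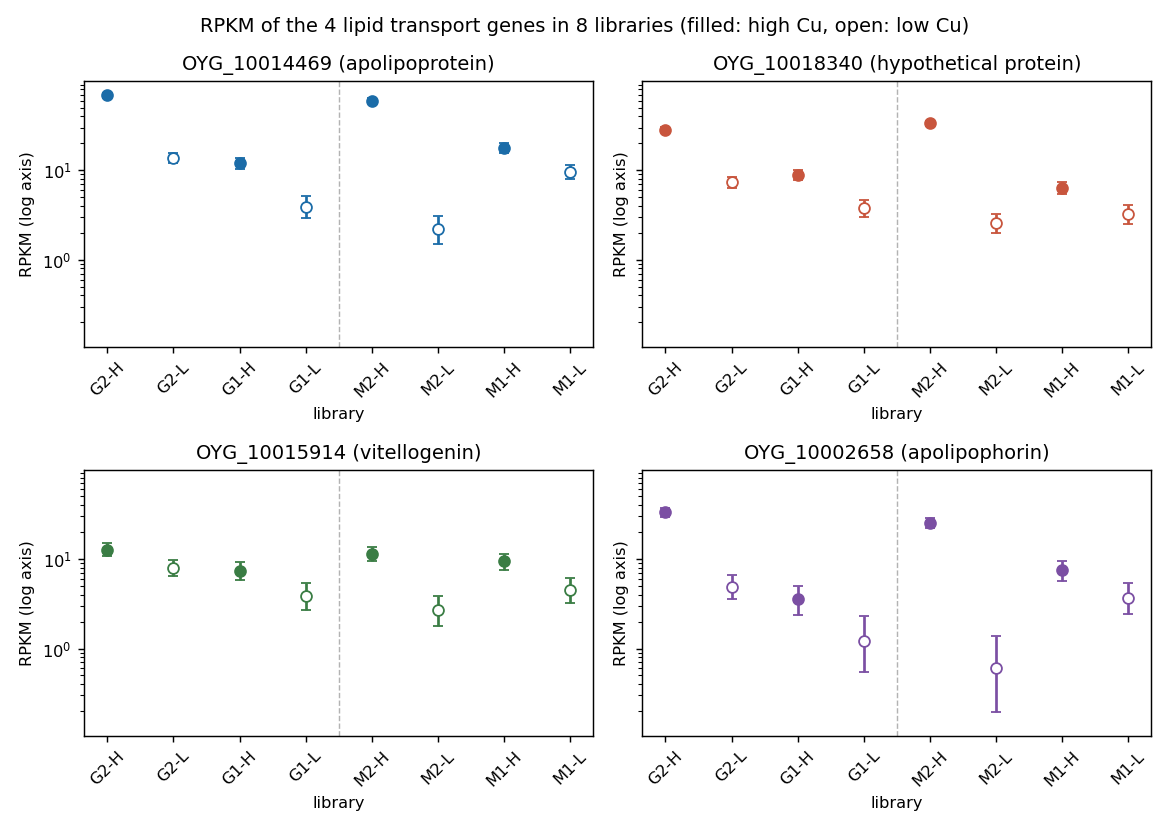
RPKM of the 4 genes in each library on a log axis, with filled points for high-Cu and open points for low-Cu libraries and bars for the exact 95% Poisson interval of the reads (counting error only). In every panel G2-H and M2-H are the 2 highest points and M2-L is the lowest, and the vitellogenin gene has the narrowest spread, from 2.68 to 12.7 RPKM.

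The study asked which genes differ between oysters of high and low Cu body burden. The high-Cu library was above its low-Cu partner in all 4 pairs for all 4 genes, 16 comparisons in all, and each of the 16 exact 95% intervals of the read ratio (Clopper-Pearson, counting error only) lay above 0. Among all genes tested, 15.3% were higher in the high-Cu library of every pair, 32.0% in both gill pairs and 35.3% in both mantle pairs, and 29.8% of the long genes were higher in every pair. Since the genes were picked on this contrast, nothing is read from the count. The apolipoprotein gene was 5.02-fold higher in G2-H than in G2-L (95% interval 4.35 to 5.83) and 3.04-fold higher in G1-H than in G1-L (2.23 to 4.20). In mantle the same gene was 27.2-fold higher in M2-H than in M2-L (19.2 to 39.8), and only 1.86-fold higher in M1-H than in M1-L (1.50 to 2.32). The apolipophorin gene followed it closely, with ratios of 6.76 in G2 (4.92 to 9.49), 2.93 in G1 (1.36 to 7.02), 42.6 in M2 (18.0 to 132.4) and 2.02 in M1 (1.27 to 3.31).

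For the hypothetical protein gene the ratios were 3.85 in G2 (3.29 to 4.52), 2.36 in G1 (1.83 to 3.06), 13.1 in M2 (10.1 to 17.1) and 1.97 in M1 (1.48 to 2.64). The vitellogenin gene had the smallest ratio of the 4 in G2, G1 and M2, namely 1.60 in G2 (1.22 to 2.11), 1.91 in G1 (1.27 to 2.91), 4.26 in M2 (2.81 to 6.66) and 2.10 in M1 (1.44 to 3.10). In unexposed mantle the 4 ratios thus lay on either side of 2-fold, with the vitellogenin and apolipophorin genes just above it and the hypothetical protein and apolipoprotein genes just below it. At least a 2-fold difference in both gill pairs was seen for 3 of the 4 genes, against 2.31% of all genes tested, and in both mantle pairs for 1 of the 4, the vitellogenin gene, against 5.02% (both with a pseudocount of 0.1 RPKM, which puts the apolipophorin gene in M1 just under 2-fold). These counts rest on the pairs on which the genes were chosen, so nothing is read from them. The study had named the vitellogenin gene for mantle, the hypothetical protein gene for gill and the apolipoprotein gene for both. The apolipophorin gene is treated here as named for gill, although the study's main list of selected genes does not hold it. In the tissue for which each was not named, the 6 pairs were also all above 0. Of all genes tested, at least 51.4% were above 0 in any single pair, the lowest share being in M1. Of the 6 pairs 2, both in M2, reached 1 on the log2 scale, as did 29.1% of all genes tested and 48.8% of the long genes in M2. By the study's results, gill and mantle pools labelled alike came from the same oysters. The study also describes vitellogenin and apolipophorin genes as higher in both tissues of high-Cu oysters. The 6 pairs may thus not be independent of the choice of genes, so nothing is read from them.

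The difference between Cu classes was larger in exposed than in unexposed oysters for most of the genes. It was larger in the exposed pair for 3 of the 4 genes in gill, all but the vitellogenin gene, and for 4 of 4 in mantle. A higher value in both pairs with the larger difference in the exposed pair was held by 18.9% of all genes tested in gill and 25.3% in mantle. The 4 genes were chosen as higher in high-Cu libraries, so the closer share is among genes higher in both pairs. Of 6443 such genes in gill, 3798 had the larger difference in the exposed pair, and of 7094 in mantle, 5083 did. A larger exposed difference was thus common among such genes. The intervals of the exposed and the unexposed pair did not overlap for the apolipoprotein and hypothetical protein genes in either tissue, nor for the apolipophorin gene in mantle. They overlapped for the vitellogenin gene in both tissues and for the apolipophorin gene in gill. The gaps in gill were narrow. The G1 interval ended at 4.20-fold and the G2 interval began at 4.35-fold for the apolipoprotein gene, and at 3.06 and 3.29 for the hypothetical protein gene. Every mantle comparison holds M2-L. The intervals cover counting error only and the share of all genes without overlap was not worked out, so nothing is read from these overlaps. In M2 the median of all genes was itself higher in M2-H than in M2-L, by 0.32 on the log2 scale, and that of the long genes by 0.98. In G2, G1 and M1 the long genes differed by 0.09, 0.18 and 0.19. With the median long gene subtracted, the M2 differences were 3.73 for the apolipoprotein gene, 2.68 for the hypothetical protein gene, 1.07 for the vitellogenin gene and 4.22 for the apolipophorin gene, and all 16 differences were still above 0, from 0.58 to 4.22. Without the M2 pair, 12 of 12 comparisons were above 0, by 0.67 to 2.73 on the log2 scale, and 18.2% of all genes tested were higher in the high-Cu library of the other 3 pairs.

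**Figure D2:**
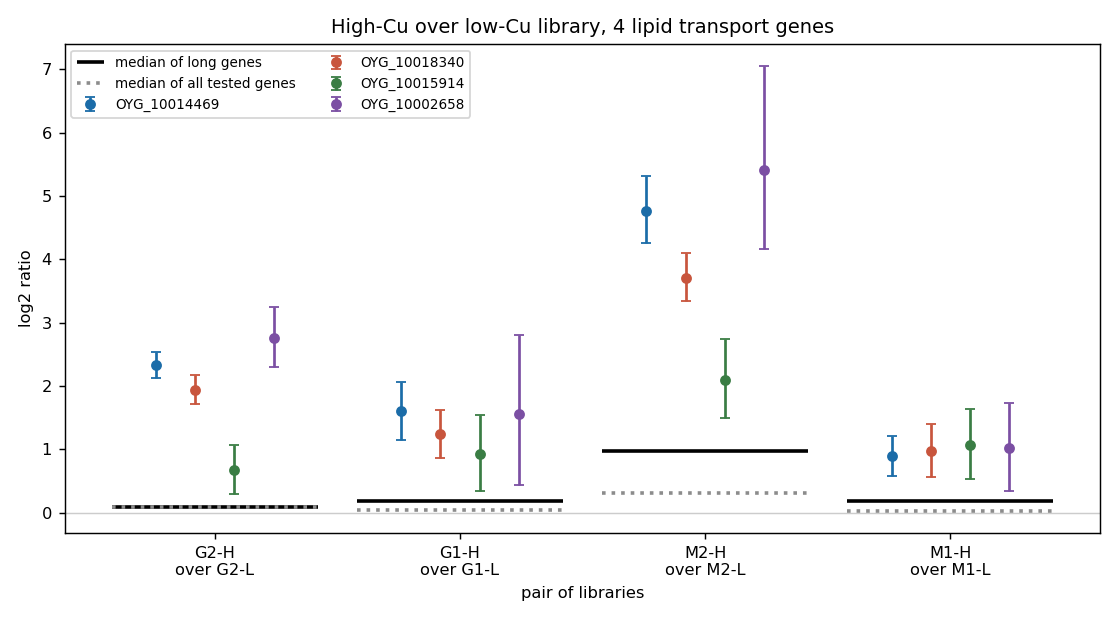
Log2 ratio of each gene between the high-Cu and the low-Cu library of each pair, with exact 95% intervals, and the median of long genes (solid line) and of all tested genes (dotted line). All 16 points lie above 0, and the M2 pair holds the largest ratios, at 2.09 to 5.41, where the median long gene is also up by 0.98.

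Exposure was not used to choose the genes. Between exposed and unexposed libraries of the same tissue and Cu class, the genes were higher in the exposed library in 12 of 16 comparisons, of which 11 had intervals above 0. The other 4 were all in low-Cu mantle, M2-L against M1-L. Of all genes tested, 51.1% were higher in the exposed library in high-Cu gill, 48.4% in low-Cu gill, 48.9% in high-Cu mantle and 37.9% in low-Cu mantle. The apolipoprotein gene was 5.74-fold higher in G2-H than in G1-H (4.91 to 6.75), 3.47-fold higher in G2-L than in G1-L (2.56 to 4.78) and 3.34-fold higher in M2-H than in M1-H (2.91 to 3.84), but in M2-L it had 0.228 times its M1-L value (0.151 to 0.337). The apolipophorin gene had ratios of 9.39 in high-Cu gill (6.45 to 14.2), 4.07 in low-Cu gill (1.96 to 9.48), 3.42 in high-Cu mantle (2.57 to 4.62) and 0.163 in low-Cu mantle (0.0489 to 0.428). These 2 genes thus had the same order of ratios over the 4 comparisons.

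The hypothetical protein gene showed its largest exposure ratio in high-Cu mantle, 5.26 (4.43 to 6.28), followed by 3.20 in high-Cu gill (2.76 to 3.73) and 1.96 in low-Cu gill (1.51 to 2.56), and in low-Cu mantle the ratio was 0.792 with an interval that includes 1 (0.556 to 1.13). The vitellogenin gene had ratios of 1.73 in high-Cu gill (1.31 to 2.31), 2.06 in low-Cu gill (1.38 to 3.12), 1.22 in high-Cu mantle (0.927 to 1.61) and 0.600 in low-Cu mantle (0.357 to 0.993). Between M2-L and M1-L the median gene also differed, by -0.26 on the log2 scale, and the median long gene by -0.79, which is below the values of the hypothetical protein gene (-0.34) and the vitellogenin gene (-0.74) and above those of the apolipoprotein gene (-2.13) and the apolipophorin gene (-2.62). The part of this shift in the low-Cu mantle values was not tested.

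Over all 8 libraries, limma with tissue and Cu class as covariates gave none of the 4 genes an exposure difference past the threshold, an adjusted p of 0.05 over all genes tested. The largest relative to its error was the hypothetical protein gene, with a log2 difference of 1.17 (standard error 0.46, limma adjusted p = 0.343, unadjusted p = 0.0335). The differences of the apolipophorin gene (1.12, standard error 0.82), the apolipoprotein gene (0.98, standard error 0.68) and the vitellogenin gene (0.34, standard error 0.39) had limma adjusted p-values of 0.614, 0.589 and 0.758. Among all genes tested 1 gene was called (0.00497%), the cAMP-responsive element-binding protein-like 2 gene OYG_10014228_10013734, a name given after its value was seen, while 2565 genes (12.7%) had an unadjusted p under 0.05. The error of this fit comes from departures from additivity between tissues and Cu classes, and the fit counts 8 libraries although exposure varies between only 4 oyster pools, each with a gill and a mantle library. With 1 mean of gill and mantle per pool (1 residual degree of freedom) limma called 158 genes, and with the pool as a random block (consensus correlation -0.25) it called 219. None of the 4 genes was among them, with limma adjusted p-values from 0.394 to 0.832 for the pool means and from 0.184 to 0.596 for the random block. Without M2-L the 4 differences were larger, between 0.70 and 2.13, and still not past the threshold (lowest limma adjusted p = 0.101).

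Gill and mantle did not differ in a fixed direction. Of 16 comparisons of gill with the mantle library of the same oyster set and Cu class, 9 were above 0, 7 intervals lay above it, 5 below it and 4 included it. Of all genes tested, 54.8% were higher in gill in unexposed high-Cu oysters and 51.2% in unexposed low-Cu oysters. In exposed oysters 56.8% were in the high-Cu pair and 59.3% in the low-Cu pair, so nothing is read from the count. Among unexposed oysters the apolipoprotein gene was lower in gill, at 0.670 times the mantle value in high-Cu oysters (0.552 to 0.812) and 0.410 times in low-Cu oysters (0.292 to 0.570). The apolipophorin gene was at 0.475 times (0.296 to 0.747) and 0.328 times (0.136 to 0.718). Among exposed oysters both were higher in gill, the apolipoprotein gene 1.15-fold in high-Cu (1.06 to 1.26) and 6.24-fold in low-Cu oysters (4.32 to 9.30), and the apolipophorin gene 1.30-fold (1.09 to 1.55) and 8.21-fold (3.26 to 26.5). The hypothetical protein gene was 1.39-fold higher in gill in unexposed high-Cu oysters (1.13 to 1.72) and at 0.849 times the mantle value in exposed high-Cu oysters (0.770 to 0.935), and in exposed low-Cu oysters it was 2.88-fold higher in gill (2.17 to 3.89). For the vitellogenin gene the only interval that excluded 1 was G2-L over M2-L, 2.96-fold (1.92 to 4.71). In that last pair the median long gene was also higher in gill, by 1.31 on the log2 scale, and in G2-H over M2-H by 0.35. With it subtracted, G2-H minus M2-H was -0.14 for the apolipoprotein gene, -0.19 for the vitellogenin gene and 0.03 for the apolipophorin gene, so that only the last was still above 0.

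Limma called 3158 of the genes tested between the tissues (15.7%), 1967 higher in gill (9.77%) and 1191 higher in mantle (5.92%), and none of the 4 lipid transport genes was among them. Their gill minus mantle differences were 0.24 (standard error 0.68), 0.49 (0.46), 0.28 (0.39) and 0.16 (0.82) for the apolipoprotein, hypothetical protein, vitellogenin and apolipophorin genes, with limma adjusted p-values of 0.849, 0.529, 0.676 and 0.920. Without M2-L the differences were -0.63, 0.02, -0.08 and -0.85 in the same order of genes, again not past the threshold. With each library centred on its median, which removes a shift of 0.21 between the tissues, 2998 genes were called, of which 1555 were higher in gill. Whether the exposure difference itself differed between the tissues was tested by an interaction term. The term was 2.90 for the apolipophorin gene (standard error 1.39), 2.32 for the apolipoprotein gene (1.17), 1.12 for the vitellogenin gene (0.72) and 0.29 for the hypothetical protein gene (0.97), with limma adjusted p-values of 0.756 for the first 3 and 0.949 for the last. No gene in the table was called by limma for this term (0%), 1162 had an unadjusted p under 0.05 (5.77%), and limma-voom on the recovered reads called 0 with 1197 under 0.05. Without M2-L the interaction term was 1.17 for the apolipophorin gene, 0.76 for the apolipoprotein gene, 0.53 for the vitellogenin gene and -0.86 for the hypothetical protein gene.

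**Figure D3:**
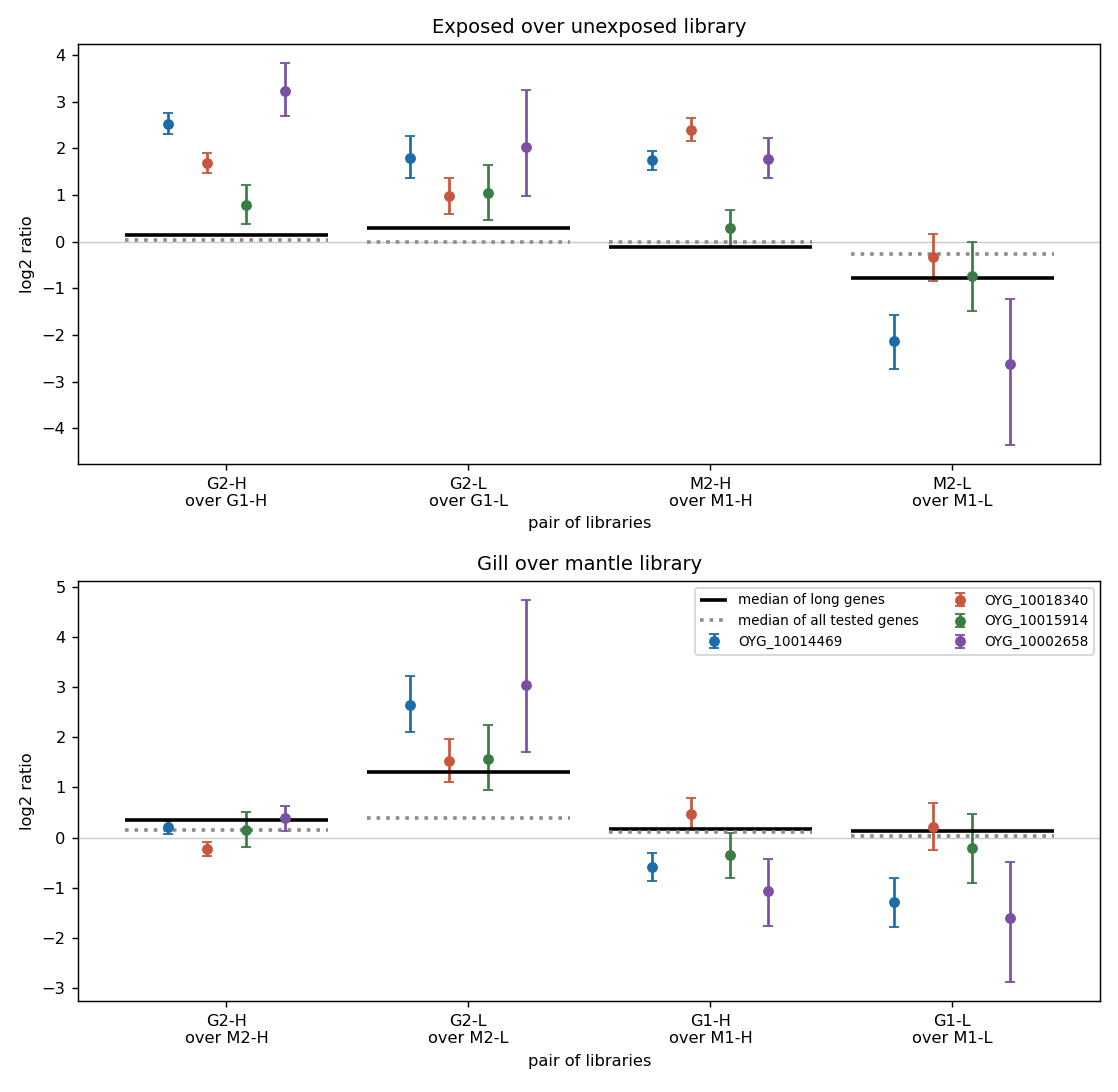
Log2 ratios of the 4 genes between exposed and unexposed libraries (top) and between gill and mantle libraries (bottom), with exact 95% intervals and the medians of long genes (solid) and of all tested genes (dotted). The exposure ratios are above 0 in the 3 pairs without M2-L and below 0 in the pair with it, and the gill over mantle ratios lie above 0 in exposed and below 0 in unexposed oysters for the apolipoprotein, vitellogenin and apolipophorin genes, with intervals that include 0 in 3 of the 4 pairs for vitellogenin and, in G2-H over M2-H, only the apolipophorin gene above the median long gene.

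The apolipoprotein and apolipophorin genes, which share the second ID number, varied less in proportion to each other than in level. The RPKM ratio of the apolipophorin to the apolipoprotein gene was 0.484 in G2-H (95% interval 0.426 to 0.549), 0.359 in G2-L, 0.296 in G1-H (0.194 to 0.437), 0.307 in G1-L, 0.428 in M2-H (0.369 to 0.496), 0.274 in M2-L, 0.417 in M1-H and 0.384 in M1-L. The ratio was lowest in M2-L and highest in G2-H, and the interval of G1-H barely overlapped that of G2-H. The levels themselves ranged over 31.4-fold and 55.5-fold. Over the 8 libraries the Pearson correlation of their log2 values was 0.998, the highest that either gene had with any of 20122 other genes, and 0.996 without M2-L. A shared second number alone did not go with such likeness: 37.1% of the IDs that carry a second number share it with another, and the 1773 pairs of tested genes that are alone in sharing a number had a median correlation of 0.39. All these points share the same libraries and depths. Whether the 2 IDs are parts of 1 gene or neighbouring copies could not be read from the table. The study's methods count only unambiguous tags, and how reads that could come from either ID were handled could not be checked.

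**Figure D4:**
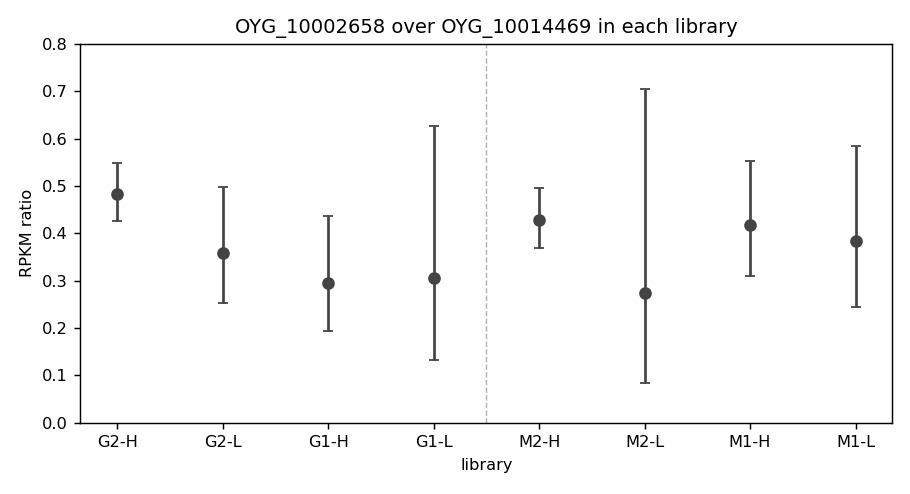
RPKM of the apolipophorin gene divided by that of the apolipoprotein gene in each library, with exact 95% intervals from the reads. The ratio stays between 0.274 and 0.484, and the widest intervals belong to M2-L and G1-L, where the apolipophorin gene had 5 and 9 reads.

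The hypothetical protein gene OYG_10018340 shares its second number with 3 further IDs, all annotated as hypothetical proteins and described here after their values were seen. OYG_10018341, with 2607 nt, had 6.67 RPKM in G2-H, 4.36 in G2-L, 4.11 in G1-H and 2.25 in G1-L, and in mantle 14.1 in M2-H, 5.35 in M2-L, 6.82 in M1-H and 2.85 in M1-L. It was thus also higher in the high-Cu library of each pair, as were 15.3% of all genes tested, and its correlation with OYG_10018340 was 0.74. OYG_10006238, with 7602 nt, had 7.86 RPKM in M2-H and 7.22 in M2-L, so that the deep drop of the 4 genes in M2-L was not seen in this long gene, and its correlation was 0.38. OYG_10006239, with 606 nt and 5 to 32 reads a library, had a correlation of 0.05. Like OYG_10018341, OYG_10006238 and OYG_10006239 were higher in the high-Cu library of each pair. Their smallest log2 differences were 0.12 in M2 for OYG_10006238 and 0.007 in G1 for OYG_10006239. None of the 3 had a tissue or an exposure difference past the threshold (limma adjusted p from 0.0559 to 0.572).

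Some genes carry a name of this family in the deposited annotation itself. Of 15 IDs annotated as vitellogenin, apolipoprotein or microsomal triglyceride transfer protein, 10 were tested. The ID annotated as Vitellogenin, OYG_10006231_10001172, had 3 reads in all 8 libraries together. The partial Vitellogenin OYG_10018729_10003621 had 12, of which 5 were in G2-H, 1 in G2-L, 4 in M2-H and 2 in M1-H, with 0 in the other 4 libraries, so that its few reads lay mostly in the libraries where the 4 genes were highest. Vitellogenin-6, OYG_10021817_10016541, named after the nematode yolk protein and 7236 nt long, had 240 reads, of which 100 fell in G1-H. It had 0.587 RPKM in G2-H, 0.505 in G2-L, 5.93 in G1-H and 0.472 in G1-L, and in mantle 0.741 in M2-H, 1.63 in M2-L, 2.64 in M1-H and 2.06 in M1-L. Its highest library was therefore an unexposed one, and its exposure difference of -1.27 (standard error 0.83, limma adjusted p = 0.566) had the opposite sign to those of the 4 genes. Both large-subunit genes of the microsomal triglyceride transfer protein, which loads lipid onto apolipoprotein B in vertebrates, were low, at means of 2.09 RPKM (OYG_10008268_10039862) and 1.20 RPKM (OYG_10019917_10039862), and neither passed a test of tissue or exposure. For the first, G2-H had 2.40 RPKM and G2-L 2.38, and M2-H had 2.99 and M2-L 3.01, so no difference between Cu classes was seen in exposed oysters.

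The other tested genes of the list are small lipid-binding or apolipoprotein-associated proteins that are not of the large family. Apolipoprotein L3, an intracellular protein in mammals, has 4 tested copies. OYG_10002758_10026564 was higher in gill (log2 difference 2.46, standard error 0.55, limma adjusted p = 0.0188), at 7.88 RPKM in G2-H, 4.97 in G2-L, 7.01 in G1-H and 9.29 in G1-L, against 2.24 in M2-H, 0.889 in M2-L, 0.604 in M1-H and 1.69 in M1-L. OYG_10009658_10029909 was the list's only gene at least 2-fold higher in both high-Cu mantle libraries, at 12.7 RPKM in M2-H against 4.22 in M2-L and 8.02 in M1-H against 2.84 in M1-L. In gill it had 19.0 RPKM in G2-H, 8.77 in G2-L, 10.8 in G1-H and 7.73 in G1-L, so that, like the 4 genes, it was higher in the high-Cu library of each pair and had G2-H and M2-H as its 2 highest libraries. OYG_10001061_10018480 and OYG_10011020_10009236 had 10 and 18 reads in all. Apolipoprotein D, a small lipocalin (OYG_10018491_10040027), was lower in gill by 1.42 on the log2 scale (standard error 0.39, limma adjusted p = 0.0428). The 2 apolipoprotein A-I-binding protein genes, OYG_10003277_10022033 and OYG_10000715_10026988, had means of 9.19 and 10.6 RPKM and passed neither test. In all, 1 of the 10 was called higher in gill and 1 higher in mantle, 0 were called for exposure, 0 were at least 2-fold higher in each high-Cu library of gill and 1 in each high-Cu library of mantle. The median high minus low difference of the 10 was 0.13 in gill and -0.09 in mantle, beside 0.10 and 0.18 over all genes tested.

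Receptors of the low-density lipoprotein (LDL) receptor family take up vitellogenin and lipoproteins in insects and vertebrates. Of 36 tested receptor genes, 4 were called higher in gill and 4 higher in mantle, beside 9.77% and 5.92% of all genes tested, and 0 were called for exposure. The most abundant, the LDL receptor OYG_10028190_10030180, had 834.3 RPKM in G2-H, 300.2 in G2-L, 1178 in G1-H and 1509.7 in G1-L, against 3693 in M2-H, 3975 in M2-L, 3587 in M1-H and 4826 in M1-L, a gill minus mantle difference of -2.29 (standard error 0.40, limma adjusted p = 0.00651). Its order of libraries was unlike that of the 4 genes. The more abundant of 2 putative vitellogenin receptors, OYG_10017985_10004633, which was named after its values were seen, had 56.6 RPKM in G2-H, 65.7 in G2-L, 35.4 in G1-H and 32.9 in G1-L, and in mantle 52.8 in M2-H, 64.5 in M2-L, 46.4 in M1-H and 40.9 in M1-L. Each of its exposed values was above both unexposed values of the same tissue, with a log2 difference of 0.63 that limma did not call (standard error 0.20, adjusted p = 0.257). In mantle 6 of the 36 receptors were at least 2-fold higher in both high-Cu libraries and 2 at least 2-fold lower, beside 5.02% and 2.95% of all genes tested. In gill 0 and 1 were, beside 2.31% and 3.13%. The median high minus low difference of the receptors in mantle was 0.72, beside 0.18 over all genes tested, and in gill 0.29, beside 0.10. The mantle value averages the M1 and M2 pairs, and the M2 pair holds M2-L. The median long gene differed by 0.98 in M2 and by 0.19 in M1, and the part of coding length in the mantle counts and median of the receptors was not tested.

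The remaining lipid lists gave few calls, and their counts between tissues are to be read beside the 9.77% of all genes tested that were higher in gill and the 5.92% that were higher in mantle. Of 15 tested transporters of the ABCA and ABCG subfamilies, which move lipids across membranes, 4 were higher in gill and 0 in mantle, among them an ABCA3 gene (OYG_10027950_10024008, log2 difference 1.63, standard error 0.35, limma adjusted p = 0.0159). Of 31 intracellular lipid carriers, 1 was higher in gill and 3 in mantle, among them the most abundant, an adipocyte-type fatty acid-binding protein (OYG_10016767_10010596, -1.10, standard error 0.25, limma adjusted p = 0.0193). Of 30 genes of fatty acid synthesis and lipid storage, 1 was higher in each tissue. Their most abundant member, an acyl-CoA desaturase (OYG_10011547_10005580), had 127.9 RPKM in G2-H and 435.05 in G2-L, 240.02 in G1-H and 350.2 in G1-L, 223.3 in M2-H and 542.8 in M2-L, and 285.9 in M1-H and 296.7 in M1-L, the opposite order of Cu classes to that of the 4 genes. Of 17 lipases 0 were higher in gill and 1 in mantle, and of 30 steroid-type nuclear receptor and steroid-related genes 1 was higher in gill and 4 in mantle. In none of these lists was a gene called for exposure.

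The tissue labels were checked by markers: 29 of 40 tested motile cilia genes were called higher in gill and 0 higher in mantle, with summed RPKM of 3144 to 4576 in gill and 1017 to 1311 in mantle. Muscle genes summed to 1523 to 2304 in gill and 3820 to 7231 in mantle, and shell-forming genes to 785.5 to 952.2 in gill and 991.2 to 2551 in mantle. Of 35 tested shell-forming genes 13 were called higher in mantle and 7 higher in gill, which included the most abundant, chitin synthase 1 (OYG_10010453_10032983, 311.3 to 426.3 RPKM in gill and 120.6 to 180.4 in mantle, limma adjusted p = 0.00229). Mantle genes were also seen in the gill library G2-L: the tyrosinase-like gene OYG_10007753_10020919 had 4.22 RPKM there and 0 in the other 3 gill libraries, against 47.3 to 351.6 in mantle, and 17 of the list's 61 genes were at 0 in G2-L, against 27 to 28 in the other gill libraries. G2-L is the low-Cu library of the G2 pair, and the part of mantle RNA in its values was not tested. Since vitellogenin is best known from the ovary, genes of germ cells and eggs were followed as well. Their sum was 1601 RPKM in G2-H, 1398 in G2-L, 1436 in G1-H and 1404 in G1-L, against 873.2 in M2-H, 881.9 in M2-L, 984.8 in M1-H and 903.98 in M1-L, with M2-H the lowest. The most abundant, the bromodomain testis-specific protein gene OYG_10013170_10015555, made up a large part of this sum, at 293.2 RPKM in G2-H and 250.2 in M2-H, and of 35 tested genes 12 were called higher in gill and 2 in mantle. The gene with the lowest gill minus mantle difference, vitelline membrane outer layer protein 1 (OYG_10019386_10024829), was at 0 in every gill library. In mantle it had 7.85 RPKM in M2-H, 4.15 in M2-L, 4.23 in M1-H and 0.788 in M1-L. Unlike the sum, it was thus highest in M2-H. Of the 51 genes of that list, 8 to 13 were at 0 in each library, and the part of germ cells in the values of the 4 genes was not tested. Hemocyte genes summed to 705.1 to 923.9 RPKM in gill and 942.6 to 1036 in mantle. In pooled tissue, fewer cells of a type and less RNA per cell cannot be told apart.

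The 4 genes resembled each other over the 8 libraries, with Pearson correlations of log2 values of 0.893 to 0.998, or 0.882 to 0.996 without M2-L. Each was chosen for being higher in high-Cu libraries, which fixes part of this likeness. Ranked against all 20122 other genes by their correlation with a given one of the 4, the other 3 were at rank 483 or better in every case, and at 402 or better without M2-L. The correlations share the same 8 libraries, and the 4 genes also followed the libraries' median level, with correlations of 0.59 to 0.70, and that of long genes, with 0.61 to 0.78. By the same measure the annotated genes most like the apolipoprotein gene were Protein SET, a chromatin-associated phosphatase inhibitor (0.977), the basement membrane protein laminin subunit gamma-1 (0.975), the tyrosine kinase Src42A (0.973), the membrane raft protein flotillin-1 (0.973) and the nuclear receptor RXR-alpha (0.972). Src42A, flotillin-1, laminin subunit gamma-1 and Protein SET were also among the 5 most like the apolipophorin gene (0.970 to 0.983), together with subunit 7 of the CCR4-NOT complex of mRNA deadenylation (0.970). The hypothetical protein gene was closest to Sec31A, a coat protein of vesicles that leave the endoplasmic reticulum (0.983), followed by the RNA-binding CUG-BP- and ETR-3-like factor 2 (0.974), the cation-dependent mannose-6-phosphate receptor, which sorts lysosomal enzymes (0.973), lipid phosphate phosphohydrolase 3 (0.972) and Protein SET (0.963).

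The vitellogenin gene was closest to plasma alpha-L-fucosidase (0.991) and nidogen-2, a basement membrane protein (0.989), followed by ankyrin repeat domain-containing protein 13C-B (0.986), mitogen-activated protein kinase 1 (0.984) and TGF-beta receptor type-1 (0.982). Of these 15 distinct genes, 13 had G2-H and M2-H as their 2 highest libraries and 14 had M2-L as their lowest. They varied less than the apolipoprotein and apolipophorin genes, between 1.81-fold and 7.27-fold over the libraries, or between 1.61-fold and 4.64-fold without M2-L. Protein SET, for example, had 80.7 RPKM in G2-H, 47.7 in G2-L, 41.5 in G1-H and 28.9 in G1-L, and in mantle 70.3 in M2-H, 23.6 in M2-L, 45.1 in M1-H and 31.3 in M1-L. Its coding length is 1014 nt. The 15 genes were picked for their likeness to the lipid transport genes, so the choice itself favours a shared order of libraries. The part of coding length in that order was not tested.

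**Figure D5:**
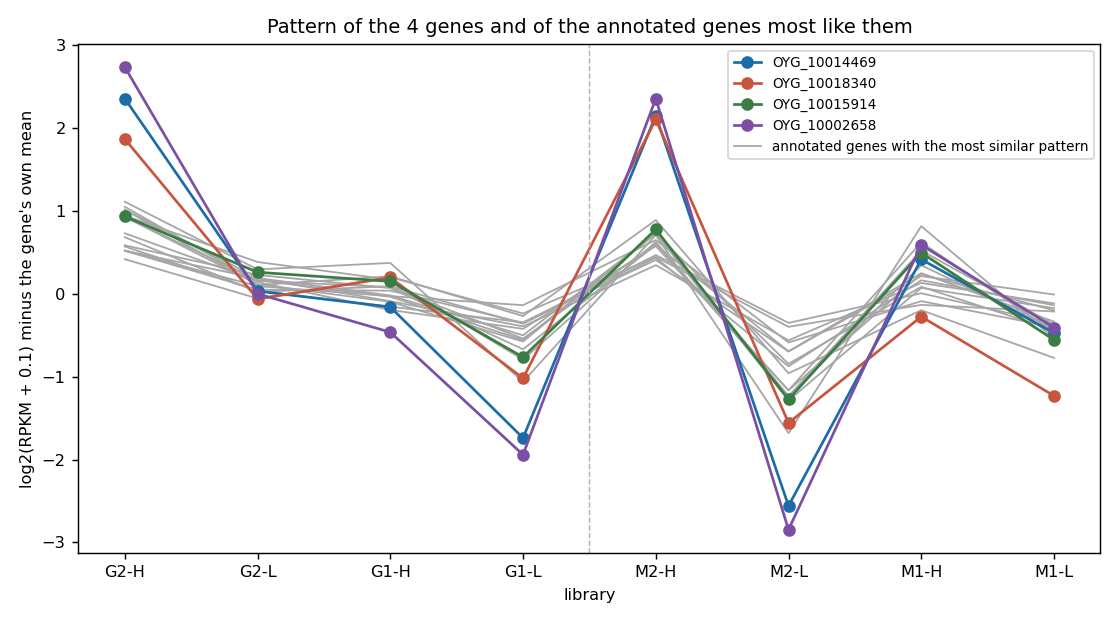
Log2 RPKM, with 0.1 added, of each gene minus its own mean over the 8 libraries, for the 4 lipid transport genes (coloured) and the 15 annotated genes most like them (grey). Of the 15 grey lines, 13 have G2-H and M2-H as their 2 highest libraries. The grey lines range over at most 7.27-fold, against 31.4-fold for the apolipoprotein gene and 55.5-fold for the apolipophorin gene.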

How the data were processed

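RNA of 6 pooled oysters per library was sequenced for 8 gill and mantle libraries. Per the study's methods, tags that were empty, of low quality or seen once were discarded, and the authors mapped the others to the Crassostrea gigas genome and counted unambiguous tags per gene. The submitters' processing notes name TopHat and Cufflinks. The deposited values are RPKM, and the authors' text describes both tags and randomly primed fragments. Column names gave the library of each of the 8 columns.

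Linear models were fitted with limma 3.58.1 (R 4.3.3, intensity trend) to log2 of RPKM plus 0.1 for the 20123 genes whose mean RPKM reached 1, all 4 lipid transport genes among them, with Benjamini-Hochberg adjustment over this whole set. With 1 library a group, the spread came from departures from additivity and the noise of single libraries (4 residual degrees of freedom, or 3 with the interaction). The p-values are set against that spread, and not against a spread between replicate pools of a condition. Intervals used whole reads recovered from the RPKM steps. With a tolerance of 0.01 read, 100% of genes with a value gave whole reads, and 99.8% of the gene lengths were multiples of 3, so lengths are coding lengths. Intervals cover counting error only.

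The 4 genes and the gene lists were chosen with earlier results of these data known. Lists were matched on the deposited annotation, and the pattern for bindin was narrowed after seeing that it matched "binding". Named genes were the 4 genes, every tested gene of the large lipid transfer list, the most abundant and most different genes of the other lists described, and for each of the 4 genes the 5 annotated genes with the highest correlation. The RefSeq gene table (assembly ASM2561291v2) matched 0 of 25647 IDs, so no protein or promoter is shown. Scripts were tested on simulated data. Alternatives were the pseudocount, the filter, the scaling, the trend, limma-voom on recovered reads, each library left out, the oyster pool as a block and, chosen after seeing the data, centring on the long genes, leaving out the M2 pair, leaving M2-L out of the correlations and, for exposure, the pool as a random block or 1 mean per pool. Gill and mantle pools labelled alike came from the same oysters according to the study's results, while its methods speak of the highest or lowest Cu in gills or mantles. The deviations of pools labelled alike correlated by 0.09 to 0.25. In the unexposed high-Cu pool this correlation, 0.09, was below the highest with another pool, 0.13, so the pairing was not borne out there. In each of the other pools it was above the highest with another pool.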

Additional observations from a re-analysis of the deposited data

Results flagged for a closer look

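The gill minus mantle difference had opposite signs in exposed and in unexposed oysters for 3 of the 4 genes, in both Cu classes. On the log2 scale with a pseudocount of 0.1 RPKM, its mean over the exposed pairs was 1.40 and over the unexposed pairs -0.92 for the apolipoprotein gene OYG_10014469. It was 1.61 in exposed and -1.29 in unexposed oysters for the apolipophorin gene OYG_10002658, and 0.84 in exposed and -0.28 in unexposed oysters for the vitellogenin gene OYG_10015914. The interaction of tissue and exposure was not past the threshold for any of them (limma adjusted p = 0.756 each). In the exposed high-Cu pair, which does not hold M2-L, the gill over mantle ratios were 1.15-fold, 1.30-fold and 1.12-fold, and that of the vitellogenin gene had an interval that includes 1 (0.874 to 1.42). The median long gene was 0.35 higher in gill in that pair on the log2 scale, and with it subtracted the difference was -0.14, 0.03 and -0.19 for the apolipoprotein, apolipophorin and vitellogenin genes, so that the opposite sign was kept there by 1 of the 3.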

How the results depend on the processing

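None of the 4 genes passed the threshold for tissue, exposure or their interaction under any alternative run. The sign of the tissue difference depended on single libraries and on the scaling. For the apolipoprotein gene it was -0.63 without M2-L, -0.04 without G2-H, -0.06 without G2-L and -0.0067 with quantile normalization. For the apolipophorin gene it was -0.85 without M2-L, -0.24 without G2-H, -0.17 without G2-L and -0.05 with libraries centred on their medians, and for the vitellogenin gene -0.08 without M2-L. With libraries centred on the long genes it was negative for all 4 genes, from -0.36 to -0.03. The genes called between tissues numbered 1804 to 2651 when each library was left out in turn (1804 without G1-L, 1887 without G2-H, 2093 without M2-H, against 3158). With the oyster pool as a replicate block 2987 genes were called between tissues and 0 for the interaction. For exposure 219 were called with the pool as a random block and 158 with 1 mean per pool. No call on the 4 genes changed under any of these. The split of tissue calls moved from 1967 of 3158 higher in gill to 1644 of 3032 with quantile normalization and 892 of 2552 with centring on the long genes. The genes called for exposure, 1 in all, numbered 3 with a pseudocount of 1, 6 without the trend, 62 with limma-voom on recovered reads, 10 in gill alone, 0 in mantle, in high-Cu and in low-Cu libraries alone and 0 with centring on the long genes, and 0 to 2 with each library left out (0 without G1-H, G1-L, G2-H, M1-H, M1-L or M2-H). In mantle alone the exposure difference was -0.17, -0.22 and -0.34 for the apolipoprotein, vitellogenin and apolipophorin genes and 1.03 for the hypothetical protein gene. For the interaction 0 to 8 genes were called with each library left out, 8 of them without G2-H. At a log2 difference of at least 2 in place of 1, 112 genes were higher in both high-Cu gill libraries (464 before) and 237 in both high-Cu mantle libraries (1010 before). The high minus low differences moved by less than their counting interval under 87 of 96 alternatives. The other 9 were all in M2, where a pseudocount of 1 gave 4.25, 3.28 and 4.05 for the apolipoprotein, hypothetical protein and apolipophorin genes. The causes were not tested.

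Depth limits the apolipophorin gene most, with 5 reads in M2-L and 9 in G1-L. With 1 pool of 6 oysters a group, differences between pools and between conditions cannot be told apart.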
